A study of Homo sapiens with 14 samples.

Results

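The genes described here code for the cytosolic DNA-sensing route and its kinase module: the DNA sensor cGAS (MB21D1), the adaptors STING (TMEM173) and MAVS, the kinases TBK1 and IKKε (IKBKE), their scaffold adaptors TANK, NAP1 (AZI2) and SINTBAD (TBKBP1), and the transcription factor IRF3. They were chosen by name as members of the pathway, and are 9 of the 58051 genes in the tables. Each symbol matched 1 gene in each table. Poly(A)-selected RNA was sequenced from MM1.S and H929, 2 established human multiple myeloma lines, after lentiviral delivery of a hairpin against ZBP1, which codes for an innate sensor of left-handed (Z-form) RNA and DNA. The 14 libraries fall into 7 groups of 2. The MM1.S groups are a scramble control, shRNA1 against ZBP1 and shRNA2 against ZBP1. The H929 groups are a scramble made for shRNA1, shRNA1, a scramble made for shRNA2 and shRNA2. Every group, controls included, was transduced with lentivirus and grown in RPMI medium with serum. The labels do not give a time after transduction, a selection step, or whether paired libraries are from different cultures, and every p-value therefore rests on a spread that could be purely technical. Bulk RNA cannot tell fewer cells of one kind from less RNA per cell.

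In this pathway, cGAS binds double-stranded DNA in the cytosol and makes the cyclic dinucleotide cGAMP, which binds STING on the endoplasmic reticulum. STING then moves to the Golgi and recruits TBK1, which phosphorylates STING and IRF3, and IRF3 enters the nucleus to switch on interferon-β and related genes. MAVS, on mitochondria, relays signals from the RNA sensors RIG-I and MDA5 to the same kinases. RNA levels of these genes do not report the phosphorylation steps through which the pathway signals.

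Upstream sequence is shown for 2 of the members that have a promoter entry, TBKBP1, which was higher in all 4 knockdown comparisons, and MAVS, which was lower with shRNA1 in both lines. The RefSeq promoter table (GRCh38.p14) held 6 of the 9 members in 9 windows, each reaching from 250 bases before to 50 after a start. The stretches below end before the first annotated transcribed base, are read on the plus strand, and lie at chr17:47693813-47694062 (TBKBP1, the first of its 3 windows) and chr20:3846584-3846798 (MAVS).
TBKBP1 upstream: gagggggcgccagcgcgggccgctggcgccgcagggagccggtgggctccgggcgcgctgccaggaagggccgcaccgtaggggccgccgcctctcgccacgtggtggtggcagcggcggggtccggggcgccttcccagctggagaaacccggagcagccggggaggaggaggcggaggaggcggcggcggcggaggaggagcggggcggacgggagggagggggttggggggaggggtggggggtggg
MAVS upstream: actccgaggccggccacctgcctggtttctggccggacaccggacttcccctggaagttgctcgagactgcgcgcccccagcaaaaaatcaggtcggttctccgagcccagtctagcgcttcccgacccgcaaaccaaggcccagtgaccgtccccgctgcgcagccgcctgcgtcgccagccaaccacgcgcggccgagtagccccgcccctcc
The TBKBP1 stretch is 250 bases long, with a GC content of 80.8% and 30 CpG dinucleotides. The MAVS stretch is 215 bases long, with a GC content of 69.3% and 23 CpG dinucleotides. On either strand, none of the 9 member windows held the letters GAAANNGAA, the core of an interferon-stimulated response element, which occurred in 8.11% of the 35116 promoter windows in the table. None held the E2F-type letters TTTGGCGC or TTTCCCGC either, which occurred in 2.27% of all windows. MB21D1, TMEM173 and IRF3 had no window, so their promoters were not searched. No capitals are used in the sequences above because no match was found in them.

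Library depth was 20.46 to 28.42 M reads in genes for MM1.S and 15.93 to 22.25 M for H929. Expression is given as a scaled count, the reads of a gene divided by the library's size factor; the tables of the lines were scaled separately, so scaled counts are compared only within a line. The targeted gene ZBP1 had 3357 and 3551 scaled counts in MM1.S scramble, 539 and 637 with shRNA1 and 367 and 443 with shRNA2. In H929 it had 4269 and 4513 scaled counts beside 1659 and 1888 with shRNA1, and 3449 and 3729 beside 1229.5 and 1109.6 with shRNA2. Every knockdown library was below every control library of its line. The ZBP1 log2 fold change was lower in MM1.S than in H929, with a difference of -1.25 ± 0.17 for shRNA1 (limma adjusted p = 0.000261) and -1.48 ± 0.17 for shRNA2 (limma adjusted p = 0.000305). Both lines carried plasma cell markers (all 8 detected), and the translocation marker MAF was 1440 to 2613 CPM (reads relative to library depth) in MM1.S against 143 to 296 in H929. The summed plasma cell markers fell from 5054-5276 CPM in MM1.S scramble to 3626-3789 with shRNA1 and 2948-3004 with shRNA2, and in H929 from 6289-6354 to 5619-5851 and from 6036-6214 to 4901-5088; their part in the results below was not tested. Summed markers of T cells, monocytes, epithelium, fibroblasts, endothelium and erythroid cells reached at most 86.5 CPM, and some moved with the hairpins. The 3 endothelial markers summed to 14.1-17.5 CPM in the H929 scramble for shRNA1 and 56.4-86.5 with shRNA1, to 17.1-17.8 in the scramble for shRNA2 and 7.55-10.7 with shRNA2, and to 29.9-33.2 in MM1.S scramble, 31.9-32.5 with shRNA1 and 2.81-3.03 with shRNA2. The 3 fibroblast markers went from 0.860-1.07 to 29.4-34.9 CPM and the 3 epithelial markers from 14.3-16.9 to 26.4-28.4 with H929 shRNA1, and the 3 T cell markers from 6.89-7.66 to 24.0-31.3 with H929 shRNA2. Most of these sums came from single genes. In H929, PECAM1 reached 86.4 CPM, COL1A1 34.8 and CD3E 31.2. VWF, CDH5, COL1A2, COL3A1, CD3D and CD2 reached at most 0.126 CPM in any H929 library. Of the epithelial markers there, KRT18 reached 21.8 CPM, KRT8 7.53 and EPCAM 0.115. In MM1.S, PECAM1 reached 32.9 CPM, VWF 1.42 and CDH5 0.0401. The part of these markers in the results was not tested either.

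After ZBP1 knockdown, the cGAS gene MB21D1 was lower and TBKBP1 was higher with both hairpins in both lines. The share of all genes called in the same direction with both hairpins in both lines is not given here. Both MM1.S hairpins were compared with the same scramble libraries, so those comparisons are not independent. MAVS was lower with shRNA1 in both lines, with no called change under shRNA2. TMEM173 was lower with shRNA2 in both lines, higher with shRNA1 in H929, and barely expressed in MM1.S. IKBKE and TANK were higher with shRNA1 in MM1.S, and AZI2 was called in no comparison with scramble. TBK1 and IRF3 were not called against scramble with all libraries, the filter and no block. They were called in MM1.S with the replicate number as a block, as given below. The authors' deposited MM1.S results also pass 0.05 in some comparisons of TBK1, IRF3 and TANK that were not called here. All 9 members were tested in every comparison, and a call is a Benjamini-Hochberg adjusted p under 0.05 over all genes tested.

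**Figure D1:**
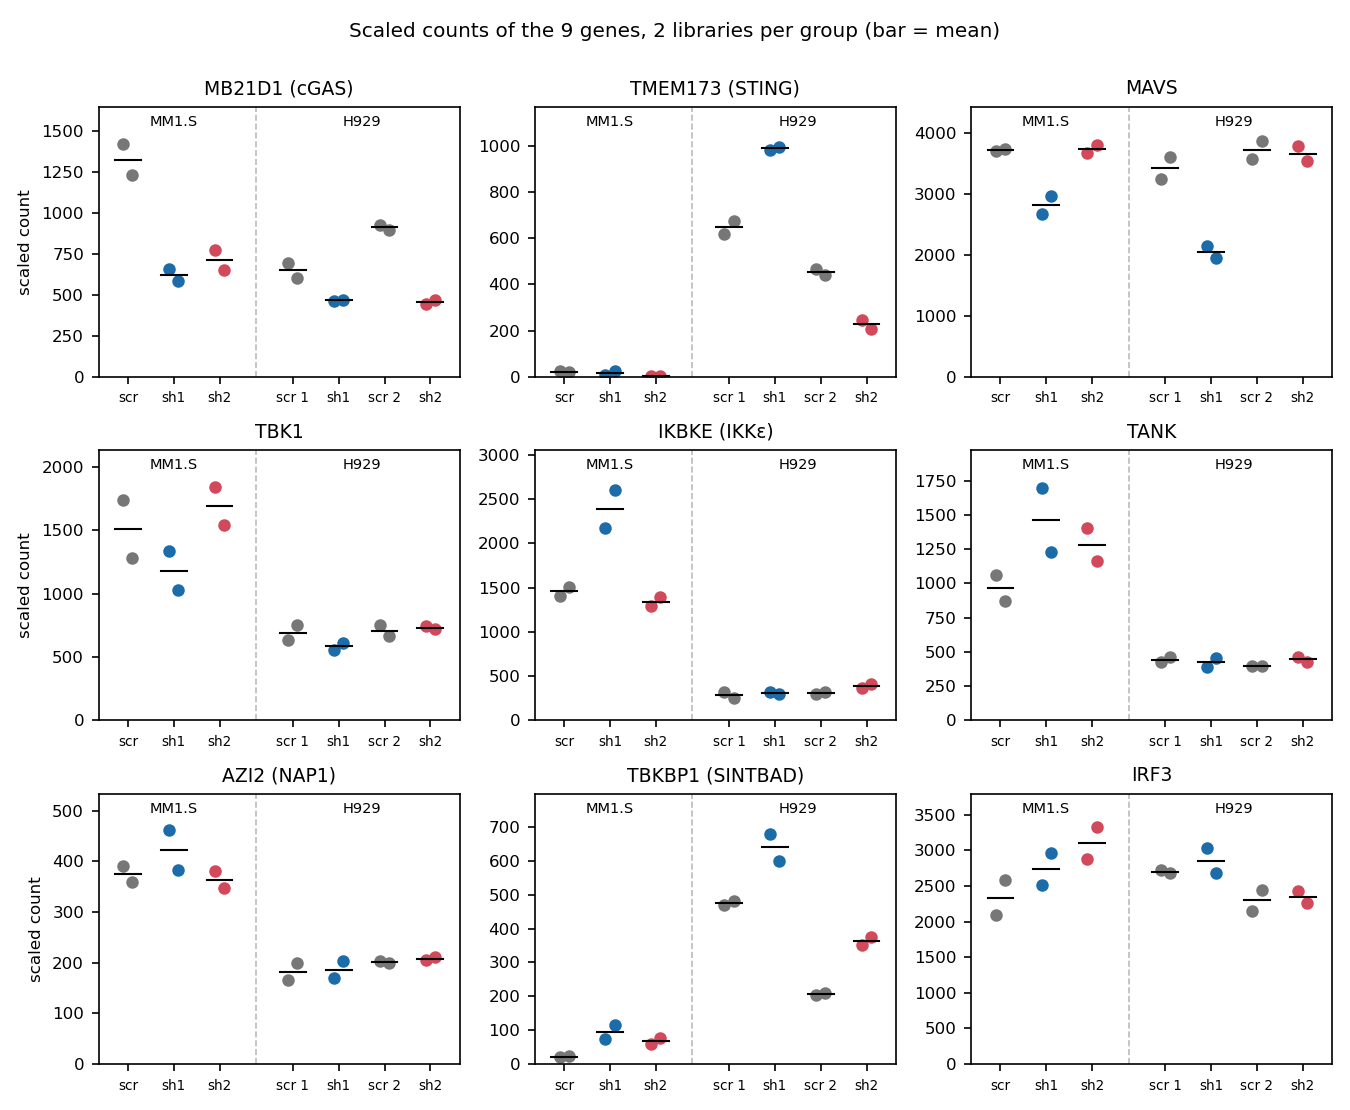
Scaled counts (vertical axes, linear from 0) of the 9 genes in the 14 libraries, 1 point per library and a bar at each group mean, with MM1.S on the left and H929 on the right of each panel (scr, scramble; scr 1 and scr 2, scrambles for shRNA1 and shRNA2; sh1 and sh2, the hairpins). The lines were scaled separately; MB21D1 is lower and TBKBP1 higher in every knockdown library than in the scramble libraries it was compared with.

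The call counts stand beside the share of all genes called, which was large in every comparison within a line, the one between the H929 scramble groups included. In MM1.S with shRNA1, 3 members were higher and 2 lower, where 17.8% and 19.7% of all 17820 genes were. In MM1.S with shRNA2, 1 was higher and 2 lower, beside 14.9% and 21.7%. In H929 with shRNA1, 2 were higher and 2 lower, beside 25.7% and 27.7% of 18213 genes, and with shRNA2 1 was higher and 2 lower, beside 18.0% and 25.0%. Nothing particular to the members is read from these counts. The median log2 fold change of the members was 0.17, -0.01, 0.03 and 0.04 in these comparisons, and that of all genes tested 0.00, -0.03, -0.01 and -0.02.

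Same-numbered MM1.S libraries deviated together from their group means, and a fit with the replicate number as a block called more members there. With the block, TBK1 was also lower (edgeR adjusted p = 0.000724) and IRF3 also higher (edgeR adjusted p = 0.00301) with shRNA1, where 28.4% of all genes were called higher and 30.9% lower. With shRNA2, the block added IRF3 (edgeR adjusted p = 7.7e-05) and TANK (edgeR adjusted p = 0.000498) as higher, beside 26.8% of all genes higher and 32.0% lower. The members' sizes of change stayed the same to within 0.01 in these 4 cases.

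The sensor gene MB21D1 (chromosome 6, 73413515 to 73452276, minus strand, GRCh38) had 1422 and 1229 scaled counts in MM1.S scramble, 655 and 586 with shRNA1 and 775 and 649 with shRNA2. All 4 knockdown libraries lay below both controls. The log2 fold change was -1.09 ± 0.15 (SE) with shRNA1 (edgeR adjusted p = 0.00107) and -0.92 ± 0.15 with shRNA2 (edgeR adjusted p = 0.00238). In H929, MB21D1 had 693 and 605 scaled counts in the scramble for shRNA1 and 465 and 469.5 with shRNA1, and 928 and 898 in the scramble for shRNA2 and 442 and 469 with shRNA2. Neither H929 pair of groups overlapped, and the knockdown levels lay close together while the scramble levels did not. The H929 log2 fold change, on the log2(value + 1) scale, was -0.47 ± 0.10 with shRNA1 (limma adjusted p = 0.00109) and -1.0 ± 0.10 with shRNA2 (limma adjusted p = 1.28e-06). These calls held in all 10 alternative fits for each MM1.S comparison and all 11 for each H929 comparison. On the opposite strand, DDX43 overlaps 180 exon bases of MB21D1 at 0.252 to 2.90 CPM per group, and reads of overlapping genes cannot be told apart where strand is not stated.

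The adaptor gene TMEM173 (STING; chromosome 5, 139475534 to 139482935, minus strand) was close to the detection limit in MM1.S. Scramble gave 24 and 25 reads, shRNA1 9 and 23 and shRNA2 2 and 4, or 22.9 and 22.3, 8.63 and 26.8, and 2.09 and 3.94 scaled counts. The shRNA2 libraries lay below both controls, whereas the shRNA1 libraries fell on both sides of them. With shRNA2, the 6 reads against 49 gave a ratio of 0.135 (95% exact Clopper-Pearson interval 0.0472 to 0.315, counting error only), and the fitted log2 fold change was -2.86 ± 0.67 (edgeR adjusted p = 0.0123). With shRNA1 it was -0.38 ± 0.51 (edgeR adjusted p = 0.587). Without replicate 1 of MM1.S shRNA2, the shRNA2 change was -2.49 and was not called (edgeR adjusted p = 0.0788).

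In H929, TMEM173 was well expressed. It had 619.8 and 676 scaled counts in the scramble for shRNA1 and 982 and 994 with shRNA1, but 467 and 441 in the scramble for shRNA2 and 246 and 208 with shRNA2. Each hairpin's libraries stood clear of their own scramble, on opposite sides. Against scramble, the log2 fold change was 0.61 ± 0.11 with shRNA1 (limma adjusted p = 0.000218) and -1.0 ± 0.11 with shRNA2 (limma adjusted p = 2.91e-06). These calls held in all 11 alternative fits of each comparison. Relative to depth and exon length, TMEM173 reached 10.1 ± 0.444 RPKM (SD, n = 2) in the H929 scramble for shRNA1 and 0.229 RPKM in MM1.S scramble; no test was run between the lines' levels.

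MAVS (chromosome 20, 3846799 to 3876123, plus strand) had 3712 and 3735 scaled counts in MM1.S scramble, 2667 and 2969 with shRNA1 and 3679 and 3813 with shRNA2. The shRNA1 libraries lay below all others, and the shRNA2 libraries enclosed the controls. On the log2 scale the change was -0.40 ± 0.12 with shRNA1 (edgeR adjusted p = 0.0284) and -0.01 ± 0.12 with shRNA2 (edgeR adjusted p = 0.953). The shRNA1 call was lost without any 1 of the 4 libraries compared, at log2 fold changes of -0.44 to -0.28 and edgeR adjusted p of 0.0721 to 0.251, and with only the compared groups in the fit (edgeR adjusted p = 0.0602). In H929, MAVS had 3246 and 3603 scaled counts in the scramble for shRNA1 and 2152 and 1958 with shRNA1, and 3579.7 and 3865 beside 3786 and 3542 for shRNA2. The shRNA1 libraries again lay below all others and the shRNA2 libraries overlapped their controls. The log2 fold change was -0.74 ± 0.09 with shRNA1 (limma adjusted p = 3.63e-06) and -0.02 ± 0.09 with shRNA2 (limma adjusted p = 0.858).

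TBK1 (chromosome 12, 64451880 to 64502108, plus strand), the kinase that phosphorylates IRF3, had 1740.0 and 1280.2 scaled counts in MM1.S scramble, 1335 and 1031 with shRNA1 and 1839 and 1542 with shRNA2. Each knockdown group overlapped the controls, the shRNA2 libraries lay above the shRNA1 libraries, and replicate 1 was above replicate 2 in each group. Against scramble, the log2 fold change was -0.35 ± 0.19 with shRNA1 (edgeR adjusted p = 0.189) and 0.14 ± 0.19 with shRNA2 (edgeR adjusted p = 0.587). For these comparisons the authors deposited -0.35 (DESeq2 adjusted p = 0.00152) and 0.17 (DESeq2 adjusted p = 0.154). In H929 the 8 libraries ran from 553 to 751 scaled counts, and the log2 fold change was -0.25 ± 0.11 with shRNA1 (limma adjusted p = 0.0715) and 0.05 ± 0.11 with shRNA2 (limma adjusted p = 0.758). The H929 shRNA1 change was called at -0.37 without replicate 1 of its scramble (limma adjusted p = 0.0274) and at -0.32 without replicate 2 of shRNA1 (limma adjusted p = 0.0432).

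IKBKE (chromosome 1, 206470476 to 206496889, plus strand), which codes for the related inducible kinase IKKε, had 1409 and 1508 scaled counts in MM1.S scramble, 2176 and 2609 with shRNA1 and 1294 and 1392 with shRNA2. Both shRNA1 libraries stood above the rest, and both shRNA2 libraries just below the controls. On the log2 scale the change was 0.72 ± 0.13 with shRNA1 (edgeR adjusted p = 0.00455) and -0.14 ± 0.13 with shRNA2 (edgeR adjusted p = 0.452). In H929, IKBKE had 320.1 and 248 scaled counts in the scramble for shRNA1, 320.0 and 299 with shRNA1, 302 and 322 in the scramble for shRNA2 and 368 and 409 with shRNA2. The shRNA1 groups overlapped and the shRNA2 libraries were above their controls, with log2 fold changes of 0.13 ± 0.13 (limma adjusted p = 0.422) and 0.32 ± 0.13 (limma adjusted p = 0.0689).

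Among the scaffold adaptors that hold TBK1 and IKKε, TBKBP1 (SINTBAD; chromosome 17, 47694081 to 47712050, plus strand, upstream sequence above) was low in MM1.S, with 20 and 27 reads in scramble, 76 and 100 with shRNA1 and 56 and 77 with shRNA2. These are 19.0 and 24.1, 72.9 and 116, and 58.4 and 75.9 scaled counts, so every knockdown library was above both controls. The log2 fold change was 2.12 ± 0.32 with shRNA1 (edgeR adjusted p = 0.00185) and 1.61 ± 0.33 with shRNA2 (edgeR adjusted p = 0.00684). In H929, TBKBP1 had 470.0 and 483 scaled counts in the scramble for shRNA1 and 679.6 and 601 with shRNA1, and 203 and 211 in the scramble for shRNA2 and 351 and 375 with shRNA2. Each hairpin's libraries were above their own scramble, but the shRNA2 libraries were below the scramble made for shRNA1. Against scramble, the log2 fold change was 0.42 ± 0.11 with shRNA1 (limma adjusted p = 0.00456) and 0.81 ± 0.11 with shRNA2 (limma adjusted p = 2.86e-05). No exon of another gene overlaps TBKBP1, TMEM173 or MAVS in GENCODE 29.

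TANK (chromosome 2, 161136908 to 161236221, plus strand) had 1059 and 870.4 scaled counts in MM1.S scramble, 1695 and 1227 with shRNA1 and 1403 and 1165 with shRNA2. All 4 knockdown libraries were above both controls. On the log2 scale the change was 0.60 ± 0.19 with shRNA1 (edgeR adjusted p = 0.0374) and 0.39 ± 0.19 with shRNA2 (edgeR adjusted p = 0.138). The shRNA1 call was lost without replicate 1 of MM1.S shRNA1, which put the change at 0.39 (edgeR adjusted p = 0.198), and without replicate 2 of MM1.S scramble (edgeR adjusted p = 0.152). For MM1.S the authors deposited 0.59 with shRNA1 (DESeq2 adjusted p = 1.31e-07) and 0.41 with shRNA2 (DESeq2 adjusted p = 0.000384). In H929 the 8 libraries ran from 392 to 463 scaled counts, with log2 fold changes of -0.07 ± 0.11 (limma adjusted p = 0.629) and 0.17 ± 0.11 (limma adjusted p = 0.243).

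AZI2 (NAP1; chromosome 3, 28315003 to 28349127, minus strand) ran from 347 to 461 scaled counts in MM1.S and from 165 to 211 in H929. Its 4 log2 fold changes lay between -0.06 and 0.17, with adjusted p of 0.415 or more (edgeR for MM1.S, limma for H929). CMC1 on the opposite strand covers 3520 of its exon bases at 11.9 to 19.4 CPM per group, so its counts may hold reads of that gene.

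IRF3 (chromosome 19, 49659569 to 49665875, minus strand), the transcription factor at the end of the route, had 2091 and 2578 scaled counts in MM1.S scramble, 2513 and 2958 with shRNA1 and 2878 and 3326 with shRNA2. The shRNA2 libraries were above both controls and the shRNA1 libraries overlapped them, with replicate 2 above replicate 1 in each group. The log2 fold change was 0.23 ± 0.16 with shRNA1 (edgeR adjusted p = 0.275) and 0.39 ± 0.16 with shRNA2 (edgeR adjusted p = 0.0834). The shRNA2 change was called at 0.55 without replicate 2 of MM1.S scramble (edgeR adjusted p = 0.0464) and at 0.43 without the filter on low values (edgeR adjusted p = 0.0209). The authors' deposited table gives 0.23 (adjusted p = 0.00869) and 0.41 (adjusted p = 4.61e-07) for the same comparisons. In H929, IRF3 ran from 2148 to 3029 scaled counts, with log2 fold changes of 0.08 ± 0.09 (limma adjusted p = 0.502) and 0.03 ± 0.09 (limma adjusted p = 0.797). BCL2L12 on the opposite strand shares 734 exon bases with IRF3, and its level was 33.9 CPM in MM1.S scramble, 11.5 with shRNA1 and 21.0 with shRNA2; its part in the IRF3 values was not tested. In the deposited MM1.S table the IRF3 row stands last, out of order, and the mean of its scaled counts, 2724, equals the mean in the authors' deposited table.

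**Figure D2:**
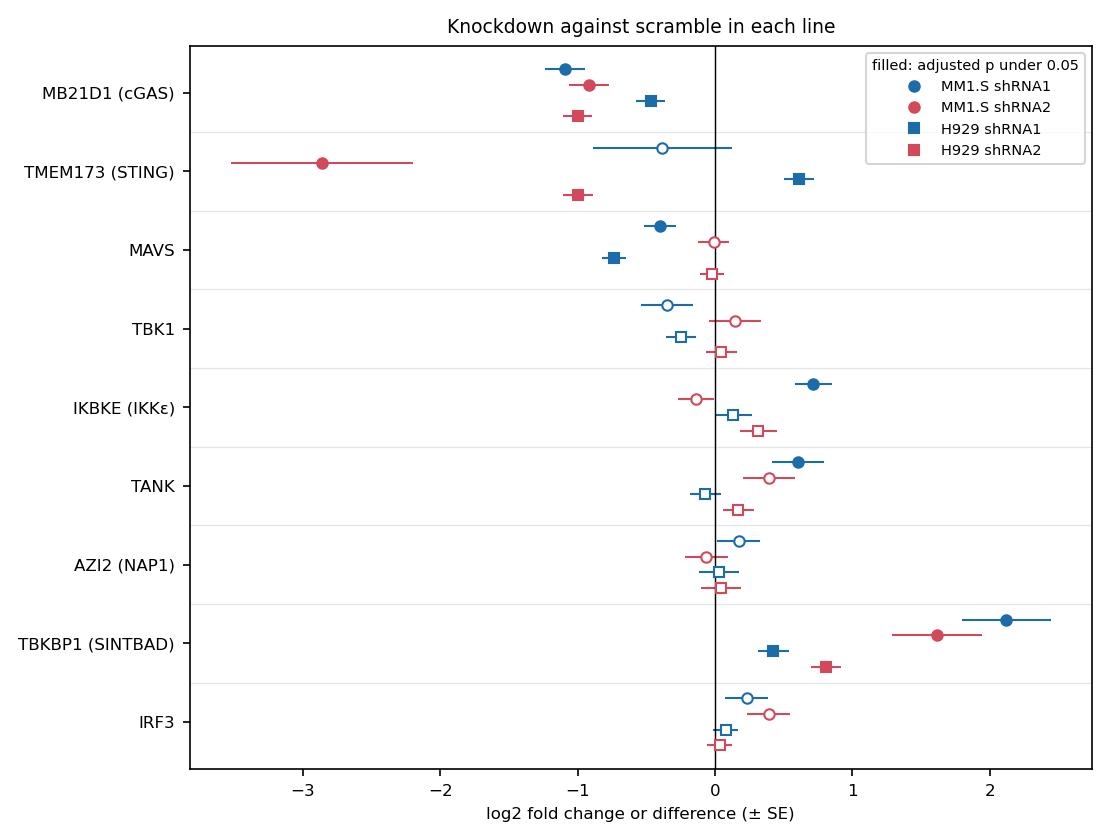
Log2 fold change (horizontal axis, ± SE) of each gene for each hairpin against its scramble, 2 libraries a group, with circles for MM1.S and squares for H929; filled symbols have an adjusted p under 0.05. All 4 MB21D1 symbols are filled left of 0 and all 4 TBKBP1 symbols filled right of 0, and MAVS is filled for shRNA1 only.

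Which members responded differently to the hairpins was tested directly. ZBP1 itself was lower with shRNA2 than with shRNA1 in MM1.S, at -0.56 ± 0.15 (edgeR adjusted p = 0.0222). In H929 its shRNA2 effect minus its shRNA1 effect was -0.31 ± 0.13 (limma adjusted p = 0.0699). The part of the depth of knockdown in the hairpin differences was not tested. In MM1.S, shRNA2 libraries against shRNA1 libraries gave 1 member higher and 2 lower, beside 16.4% and 20.4% of all genes. MAVS was higher by 0.39 ± 0.12 (edgeR adjusted p = 0.0319), TMEM173 lower at -2.48 ± 0.70 (edgeR adjusted p = 0.0264) and IKBKE lower at -0.85 ± 0.13 (edgeR adjusted p = 0.0023). The IKBKE call held in all 10 alternative fits, while that of MAVS was lost without any 1 of the 4 libraries (log2 differences of 0.31 to 0.46) and that of TMEM173 without any of 3 of them (-3.00 to -1.50). The other 6 members lay between -0.51 and 0.49. With the block, TBK1 (0.50, edgeR adjusted p = 5.15e-05) and IRF3 (0.16, edgeR adjusted p = 0.0225) were also higher and TANK (-0.20, edgeR adjusted p = 0.0243) lower, beside 28.7% of all genes higher and 29.6% lower.

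In H929 the corresponding difference, the shRNA2 effect minus the shRNA1 effect, each against its own scramble, also gave 1 member higher and 2 lower, beside 20.0% and 21.9%. It was 0.71 ± 0.13 for MAVS (limma adjusted p = 0.000278), -0.53 ± 0.15 for MB21D1 (limma adjusted p = 0.00772) and -1.61 ± 0.16 for TMEM173 (limma adjusted p = 9.02e-07). These 3 calls held in all 14 alternative fits each. MAVS and TMEM173 differed between hairpins in the same direction in both lines, whereas IKBKE was called in MM1.S and not in H929, with 0.18 ± 0.19 in H929 (limma adjusted p = 0.471). The other 5 members lay between -0.04 and 0.39 in H929 and were not called in the main fit. The highest, TBKBP1 (0.39 ± 0.16, limma adjusted p = 0.0623), was called in some alternatives that kept every library. It was 0.43 with TMM scaling (limma adjusted p = 0.0391) and 0.42 with edgeR on recovered reads (edgeR adjusted p = 0.0454).

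The H929 scramble groups themselves differed for 3 members. The scramble made for shRNA2 against the one made for shRNA1 was 0.50 ± 0.10 higher for MB21D1 (limma adjusted p = 0.00187), lower for TMEM173 at -0.51 ± 0.11 (limma adjusted p = 0.00254) and lower for TBKBP1 at -1.20 ± 0.11 (limma adjusted p = 2.13e-06). One member higher and 2 lower stand beside 16.8% and 13.1% of all genes between these control groups. For TBKBP1 this distance between controls was larger than either H929 knockdown change, and for MB21D1 it was larger than the shRNA1 change. The other 6 members lay between -0.23 and 0.15 in this contrast. ZBP1 was also lower in the scramble made for shRNA2, at -0.29 ± 0.09 (limma adjusted p = 0.0257). Each H929 effect was set only against its assigned scramble.

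Whether a hairpin acted differently in the lines was tested as the difference of the within-line effects over all 14 libraries. For shRNA1, 2 members were higher in MM1.S and 1 lower, beside 10.4% and 11.0% of 20370 genes. The TBKBP1 rise was 1.63 ± 0.30 larger in MM1.S (limma adjusted p = 0.00218), the IKBKE change 0.57 ± 0.19 higher (limma adjusted p = 0.047) and the MB21D1 change -0.62 ± 0.17, a deeper fall in MM1.S (limma adjusted p = 0.0207). The TBKBP1 call held in all 13 alternative fits, the MB21D1 call in 8 and the IKBKE call in 5 of 13. The IKBKE difference lost its call without any of 6 libraries and the MB21D1 difference without any of 5, where they were 0.39 to 0.62 and -0.63 to -0.52. The other 6 members lay between -1.14 ± 0.52 (TMEM173, limma adjusted p = 0.141) and 0.66 ± 0.22 (TANK, limma adjusted p = 0.0512). The TMEM173 value rests on the 2 MM1.S shRNA1 libraries: it was -1.90 and called without replicate 2 (limma adjusted p = 0.00257) and -0.37 without replicate 1 (limma adjusted p = 0.479). TANK was called in 4 of 13 alternative fits, and without MM1.S shRNA1 replicate 1 its difference was 0.42 (limma adjusted p = 0.178). For shRNA2, 0 members were called in either direction in the main fit, beside 4.34% and 5.41%. An unadjusted p under 0.05 by limma was found for 3 (TMEM173, TBKBP1 and IKBKE). While edgeR on counts and recovered reads also called 0, the block called TMEM173 lower (-1.59, limma adjusted p = 0.0149). It called TBKBP1 (0.78, limma adjusted p = 0.0175) and IRF3 (0.38, limma adjusted p = 0.0388) higher. Of all 20370 genes, that fit called 1928 higher and 1922 lower. The main shRNA2 difference was -1.59 ± 0.52 for TMEM173 (limma adjusted p = 0.0731), 0.10 ± 0.17 for MB21D1 and 0.78 ± 0.30 for TBKBP1 (limma adjusted p = 0.126). For TMEM173 it rests on 2.09 and 3.94 scaled counts in MM1.S shRNA2, so its size depends on the fit. Over the alternatives that kept every library it ran from -1.93 to -0.81.

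**Figure D3:**
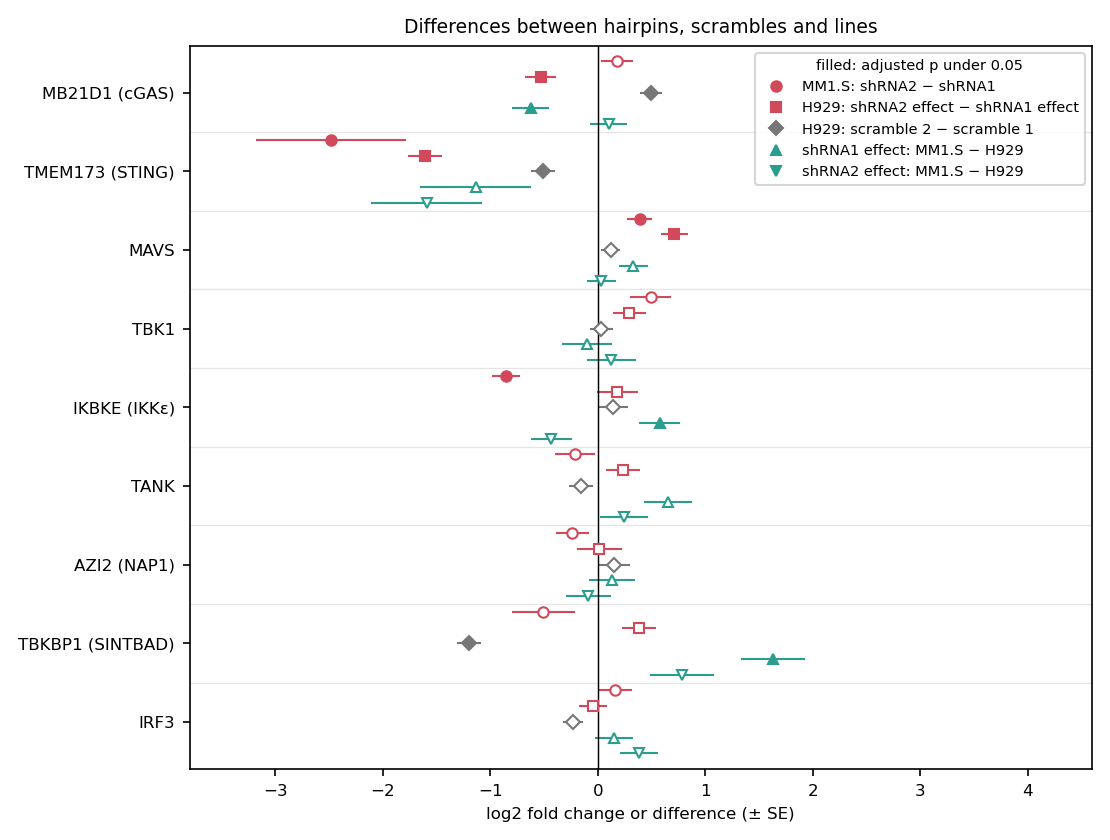
Log2 differences (horizontal axis, ± SE) between hairpins within a line (red), between the H929 scramble groups (grey diamonds) and between the lines for each hairpin (green triangles); filled symbols have an adjusted p under 0.05. The grey symbols are filled for MB21D1, TMEM173 and TBKBP1, and no downward triangle (shRNA2 effect between lines) is filled.

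Compared per length, IRF3 was the most abundant member in both lines' scramble groups, at 24.0 ± 3.97 RPKM (SD, n = 2) in MM1.S and 42.8 ± 1.2 and 33.5 ± 2.27 in the H929 scrambles for shRNA1 and shRNA2. In MM1.S scramble, IKBKE followed at 15.0 ± 0.993 RPKM, and MB21D1 (12.4 ± 1.06), TBK1 (12.3 ± 2.44) and MAVS (12.3 ± 0.272) lay within each other's spread. TANK at 6.74 ± 0.813 and AZI2 at 2.30 ± 0.10 RPKM were lower, and TMEM173 and TBKBP1 stood at 0.229 and 0.197 RPKM. In H929, MAVS was second at 17.5 RPKM in both scramble groups, IKBKE was only 4.51 ± 0.885 and 4.55 ± 0.101, and AZI2 was lowest at 1.72 ± 0.194 and 1.76 ± 0.074. TMEM173 and TBKBP1, nearly silent in MM1.S, reached 10.1 and 6.69 RPKM in the H929 scramble for shRNA1, and 6.53 and 2.67 RPKM in the one for shRNA2.

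Over the 14 libraries, after the mean of each line was removed, the log2 CPM of the members moved together to differing degrees. These correlations are descriptions over libraries that share groups and scaling. Pearson's r was 0.890 for IRF3 with TBKBP1 and 0.755 for TANK with AZI2, and -0.813 for MB21D1 with TBKBP1 and -0.771 for TMEM173 with MAVS. Among 9808 genes, those most like MB21D1 were KCNQ5 (r = 0.966), RAB27A (0.965) and IDE (0.964), those most like TBK1 were SNX4 (0.960), SNX6 (0.945) and BLOC1S6 (0.942), and those most like IRF3 were CYHR1 (0.971), PNPLA2 (0.969) and ZNF580 (0.968).

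The genes around the members were followed in 7 lists of 92 genes, ordered along the route. List counts are given in the order MM1.S shRNA1, MM1.S shRNA2, H929 shRNA1 and H929 shRNA2, where 17.8%, 14.9%, 25.7% and 18.0% of all genes were called higher and 19.7%, 21.7%, 27.7% and 25.0% lower. With the block, the all-gene shares in MM1.S were 28.4% and 26.8% higher and 30.9% and 32.0% lower. The share of all genes called in the same direction in all 4 comparisons is not given here. Nothing particular is therefore read from a list gene that fell or rose in all 4. Of 15 tested genes that supply, sense or clear DNA or move cGAMP, 7, 7, 9 and 7 were lower and 1, 2, 2 and 0 higher in MM1.S shRNA1, MM1.S shRNA2, H929 shRNA1 and H929 shRNA2; the median log2 fold change was -0.32, -0.49, -0.36 and -0.22. With the block, 3 were higher with shRNA1 and 11 lower with shRNA2 in MM1.S. RNASEH2A, the catalytic subunit of RNase H2, fell in all 4, at -2.29 ± 0.22 and -1.04 ± 0.21 in MM1.S (edgeR adjusted p = 0.000214 and 0.00624) and -2.42 ± 0.11 and -1.32 ± 0.11 in H929 (limma adjusted p = 1.15e-10 and 1.96e-07). LRRC8A, a channel subunit that passes cGAMP, also fell in all 4, by log2 fold changes of -1.09 to -0.37. The cGAMP importer SLC19A1 fell with both hairpins in MM1.S (-0.93 ± 0.27 and -1.59 ± 0.28) and with shRNA2 in H929 (-1.21 ± 0.10). The exporter ABCC1 fell with both in H929 (-0.76 ± 0.10 and -0.49 ± 0.10) and with shRNA2 in MM1.S (-0.59 ± 0.13). IFI16, a nuclear DNA sensor, fell in H929 (-0.93 ± 0.13 and -1.33 ± 0.13), and RNASEH2B fell in MM1.S (-1.12 ± 0.15 and -0.84 ± 0.14). Not all genes of the list fell. ENPP1 was called higher with shRNA1 and lower with shRNA2 in both lines. DNASE2 was called higher with shRNA2 in MM1.S and with shRNA1 in H929. ADAR was called higher with shRNA2 in MM1.S and lower with shRNA1 in H929.

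Of 15 tested genes of STING trafficking and turnover, 4, 4, 4 and 3 were lower and 1, 2, 2 and 4 higher in the same order, and 4 were higher with shRNA1 in MM1.S with the block. The lower counts are near the shares of all genes, and nothing is read from them about the list. SURF4, a cargo receptor that returns proteins from the Golgi to the endoplasmic reticulum, fell in all 4 comparisons, by log2 fold changes of -1.63 to -1.06. RNF26, a ubiquitin ligase of that membrane, also fell in all 4 (-1.26 to -0.38). INSIG1, a sterol-regulated membrane protein, fell in MM1.S (-1.33 ± 0.13 and -1.31 ± 0.13) and passed no test in H929, and its effect differed between lines for both hairpins (limma adjusted p = 3.72e-05 and 0.00169). RNF5, another ligase that acts on STING, rose in H929 (0.38 ± 0.10 and 0.32 ± 0.10).

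Of 16 tested TBK1 partners and regulators, 5, 3, 9 and 4 were higher and 1, 3, 4 and 7 lower. The autophagy receptors SQSTM1 and OPTN and the ubiquitin ligase TRAF6 rose in all 4 comparisons. SQSTM1 rose from a mean of 9897 to 18504 and 34405 scaled counts in MM1.S, log2 fold changes of 0.90 ± 0.17 and 1.78 ± 0.17, and by 0.85 ± 0.09 and 0.74 ± 0.09 in H929. The phosphatase gene PPM1B and the NF-κB inhibitor TNFAIP3 fell with both hairpins in H929 and with shRNA2 in MM1.S. With the block, 11 and 8 genes of this list were higher in MM1.S.

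Of 13 tested genes of RNA sensing upstream of MAVS, 5, 3, 2 and 4 were higher and 0, 2, 5 and 4 lower; with the block, 9 and 6 were higher in MM1.S and 1 lower with shRNA1. IFIH1, which codes for MDA5, rose in MM1.S (0.52 ± 0.13 and 0.85 ± 0.13), fell with shRNA1 in H929 (-1.24 ± 0.10) and rose there with shRNA2 (0.40 ± 0.10). ZNFX1, a helicase that binds viral RNA, did the same, at 1.28 ± 0.12, 2.04 ± 0.12, -0.87 ± 0.09 and 0.27 ± 0.09. DHX58 rose with both hairpins in MM1.S (1.69 ± 0.21 and 0.77 ± 0.21) and fell with shRNA1 in H929 (-0.83 ± 0.17), whereas DDX58, the gene of RIG-I, passed no test against scramble (0.40, 0.41, -0.35 and 0.50). In H929, TRIM25 fell and NLRX1 rose with both hairpins.

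Of 11 tested direct IRF3 targets, 4, 4, 2 and 0 were higher (beside 17.8%, 14.9%, 25.7% and 18.0% of all genes) and 1, 3, 6 and 10 lower (beside 19.7%, 21.7%, 27.7% and 25.0%), with median log2 fold changes of 0.56, 0.04, -0.63 and -0.85; with the block, 2 were lower with shRNA1 in MM1.S, beside 30.9% of all genes. IFNB1, the interferon-β gene, had 0 to 2 reads in each library and was not tested. CXCL10, a chemokine, rose with shRNA1 in MM1.S from means of 365 to 3299 scaled counts (3.18 ± 0.32, edgeR adjusted p = 0.000284) and stood at 380 with shRNA2 (0.04 ± 0.31); H929 libraries had 0 to 3 reads. IFIT3 rose in MM1.S (1.05 ± 0.18 and 0.79 ± 0.18) and fell in H929 (-1.48 ± 0.19 and -0.94 ± 0.19), and its effects differed between lines (limma adjusted p = 0.000116 and 0.00371). ISG15, a ubiquitin-like modifier, rose with shRNA2 in MM1.S (1.31 ± 0.19) and fell in H929 (-2.55 ± 0.14 and -0.96 ± 0.14), also with a difference between lines (limma adjusted p = 6.13e-06 and 0.000157). HERC5, the ligase for ISG15, fell in all 4 comparisons (-1.40 to -0.74). CCL5 fell with both hairpins in H929 and with shRNA2 in MM1.S, and IFIT1 fell in H929 (-1.41 ± 0.25 and -0.68 ± 0.25) while it passed no test in MM1.S. In the H929 scramble for shRNA2, ISG15 had a mean of 1920 scaled counts against 4544 in the scramble for shRNA1, a log2 difference of -1.23 ± 0.14 (limma adjusted p = 1.09e-05).

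Of the other IRFs and IRF3 cofactors, 4 and 6 of 11 tested were higher and 1 and 2 lower in MM1.S, and 1 and 0 of 10 higher and 6 and 2 lower in H929. IRF7, which takes part in the later interferon response, rose in MM1.S (1.10 ± 0.21 and 1.55 ± 0.21) and fell in H929 (-0.46 ± 0.13 and -0.86 ± 0.13), and the line difference passed for both hairpins (limma adjusted p = 0.00132 and 0.000241). IRF1, IRF5 and the coactivator EP300 rose with both hairpins in MM1.S, and EP300 also with shRNA1 in H929 (0.46 ± 0.09). IRF2 fell with both in H929 and with shRNA2 in MM1.S (-0.41 ± 0.11). Of 8 tested genes of the interferon receptor and its signalling complex, 4, 1, 3 and 0 were higher and 0, 1, 2 and 4 lower; under the block, MM1.S shRNA1 had 1 lower, and MM1.S shRNA2 had 2 higher and 3 lower.

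**Figure D4:**
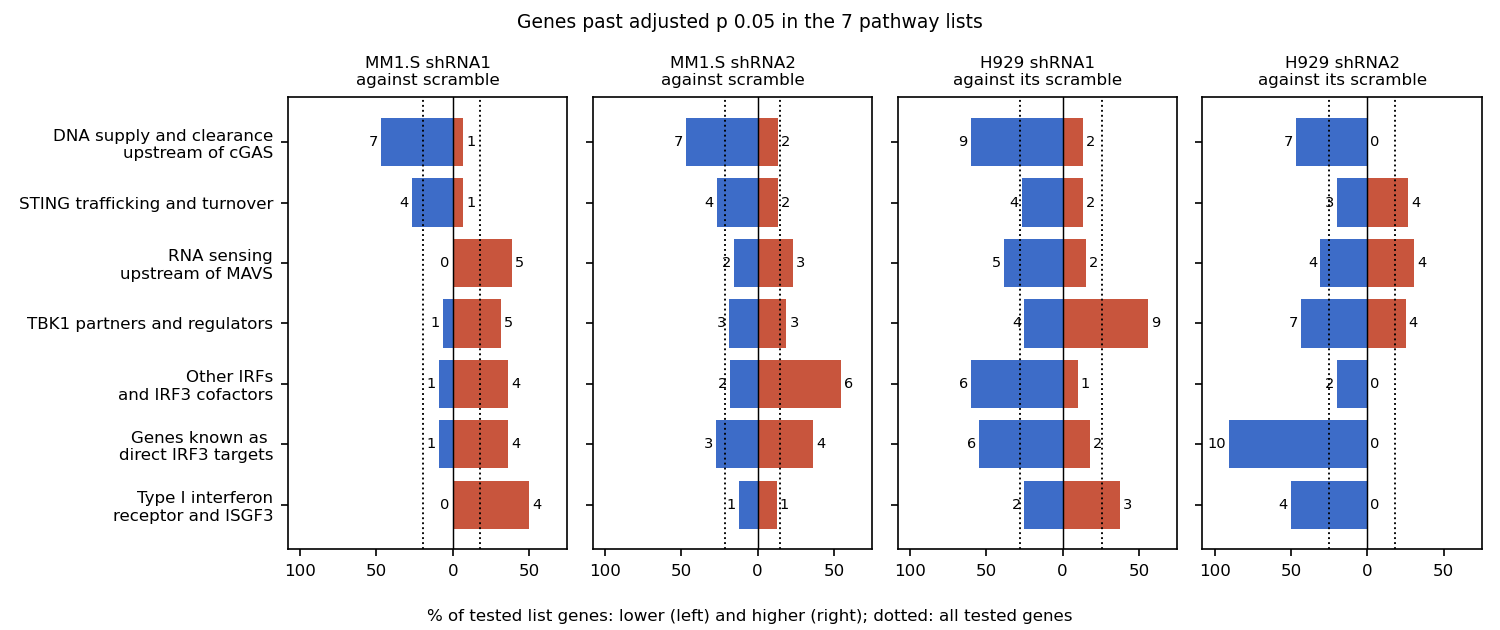
Share of tested genes in each of the 7 pathway lists that were called lower (blue, to the left, in % of tested genes) or higher (red, to the right), with the number of genes beside each bar; dotted lines mark the shares among all genes tested. Of the direct IRF3 targets, 4 of 11 are higher in each MM1.S panel and 10 of 11 lower in the H929 shRNA2 panel.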

How the data were processed

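Per the labels' protocols, poly(A) RNA went into NEBNext Ultra II libraries. STAR 2.5.3a, DESeq2 1.24.0 and GRCh38 are named in the submitters' processing notes; the counter, annotation and strand setting are not given in the sources used here. For MM1.S the deposited values are raw counts of reads per gene, per the file headers. The deposited H929 table holds a normalized signal: values times 1 factor per library were whole within 0.01 for 100.0% of values, so whole reads were recovered. The authors deposited log2 fold changes, adjusted p-values and a mean signal for each hairpin, per the file headers. Each table lists 58069 rows; 18 repeated identifiers were left out. Columns with abbreviated names were matched to labels by elimination and checked against the authors' fold changes. In H929 these correlated at 0.997 for shRNA1 and 0.999 for shRNA2, and in MM1.S at 0.990 and 0.992. The ratio of the mean scaled count to the authors' mean lay within 0.01 of 1 for 100% of 11200 MM1.S genes. In H929 this held for only 30.1% of 10944 genes, and the reason was not tested.

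MM1.S counts were tested with edgeR 4.0.16 (R 4.3.3; quasi-likelihood, TMM, filterByExpr minimum count 10, all 6 libraries), with SE taken as the fold change divided by the root of F. H929 values, because they are not counts, and line differences were tested with limma 3.58.1 (trend) on log2(value + 1), keeping genes that reach a value of 10 in 2 or more libraries; MM1.S scaled counts are reads over median-of-ratios size factors. P-values were adjusted over all genes tested (Benjamini-Hochberg). RPKM uses GENCODE 29 exon lengths. Matched by replicate number, deviations from group means correlated at 0.532 to 0.795 between MM1.S groups (11217 genes). Between H929 groups the correlations were -0.174 to 0.212. The main fits left the libraries of both lines unpaired, and the replicate numbers entered as a block only in alternative fits. What the numbers mean is not labelled. The fits were tested on simulated data with known changes. There, fold changes were recovered with little bias and strong changes were called by edgeR in MM1.S, by limma in H929 and in the line difference. DESeq2 was run only on a simulated comparison without changed genes. The test of the line difference missed most of the weaker ones, so a line difference that was not called says little. The simulated counts had the same set spread for every gene, few changed genes and no shared deviation of same-numbered libraries. They therefore do not show the bias or power of the fits in these data.

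The members, lists, tests and naming rule (up to 4 genes per list and line called with both hairpins in 1 direction, plus 8 fixed interferon genes) were chosen with earlier results of these data known. Alternatives were other scaling, DESeq2 1.42.0, pseudocounts of 0.1 and 5, no filter, fits of the compared groups only, the block, edgeR on recovered reads and leaving out each library.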

Additional observations from a re-analysis of the deposited data

Results flagged for a closer look

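Of the 9 genes, 3 had effects in H929 that differed between the hairpins when the difference itself was tested (limma, each hairpin against its own scramble, shRNA2 effect minus shRNA1 effect). The difference was 0.71 for MAVS, -0.53 for MB21D1 and -1.61 for TMEM173, with limma adjusted p of 0.000278, 0.00772 and 9.02e-07. For MB21D1, whose knockdown libraries were alike (442 to 469.5 scaled counts), the scramble groups lay apart by a log2 difference of 0.50, so the difference in effect stands beside a difference between controls of like size. For TMEM173 the controls lay apart by -0.51.

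The shRNA1 effect differed between the lines (limma over all 14 libraries, MM1.S minus H929) for 3 of the 9 genes. The difference was 1.63 for TBKBP1, 0.57 for IKBKE and -0.62 for MB21D1, with limma adjusted p of 0.00218, 0.047 and 0.0207. TBKBP1 started from 20 and 27 reads in MM1.S scramble and from 470.0 and 483 scaled counts in the H929 scramble for shRNA1. ZBP1 itself also fell further in MM1.S, with a line difference of -1.25, and the part of the depth of knockdown in these 3 differences was not tested.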

How the results depend on the processing

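Over the 9 comparisons, 820 of 926 alternative fits of a member kept its direction and its side of the threshold. In 28 a call was lost, in 33 one was gained, and in 45 the sign changed, always of a change that was not called. In the counts of members called, 166 of 206 alternatives stayed within 1.5 times. For the counts of list genes called, 482 of 588 alternatives did, and 106 moved further. Of 1825 alternative fits of ZBP1 and the named list genes, 1622 kept direction and side of the threshold. A call was lost in 186 of these and gained in 15, and the sign changed in 2. With the replicate number as a block, members higher became 3 for MM1.S shRNA2 and 3 for MM1.S shRNA2 against shRNA1. In the line difference the block gave 4 higher and 2 lower for shRNA1 and 2 higher and 1 lower for shRNA2. That block also covered H929, where same-numbered deviations correlated at 0.212 between shRNA1 and its scramble and 0.092 between shRNA2 and its scramble. The block changed no other count of members called by more than 1.5 times. With only the compared groups fitted, MM1.S shRNA1 had 1 member lower, MM1.S shRNA2 against shRNA1 2 higher and 1 lower, and H929 shRNA2 2 higher. Without the filter on low values, members higher were 3 for MM1.S shRNA2, 2 for MM1.S shRNA2 against shRNA1 and 1 for the shRNA1 line difference, which was also 1 at a pseudocount of 0.1. DESeq2 gave 2 higher for MM1.S shRNA2 against shRNA1. On recovered reads, edgeR gave 2 higher for H929 shRNA2 and 2 for the H929 effect difference, and TMM scaling 2 for the latter.

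Leaving out 1 library, members lower were 1 in each fit for MM1.S shRNA1, 1 to 2 for MM1.S shRNA2, 1 to 2 for MM1.S shRNA2 against shRNA1 and 0 to 1 for the shRNA1 line difference. Members higher were 1 to 2 for MM1.S shRNA2, 0 in each fit for MM1.S shRNA2 against shRNA1, 1 to 2 for the H929 effect difference and 1 to 2 for the shRNA1 line difference. Fewer libraries were fitted there, and a group left with 1 library was assumed to vary like the others.

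Of alternatives that kept every library, signs changed only for MAVS and IRF3, at values near 0. For MAVS with shRNA2 in MM1.S, the log2 fold change was 0.016 with median-of-ratios factors, 0.0087 with DESeq2, 0.028 without the filter, 0.0085 with limma and 0.0033 with the compared groups only. For MAVS with shRNA2 in H929 it was 0.0011 with TMM scaling and 0.017 with edgeR, and its shRNA2 line difference was -0.069 with edgeR. The IRF3 effect difference in H929 was 0.00092 with TMM scaling.

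Leaving out 1 library, log2 changes with shRNA1 in MM1.S ran from -1.33 to 0.29 for TMEM173. With shRNA2 in MM1.S they ran from -0.061 to 0.38 for TBK1, -0.12 to 0.00022 for AZI2, -0.038 to 0.026 for MAVS and -0.31 to 0.49 for CXCL10, and TANK between the hairpins from -0.43 to 0.040. With shRNA1 in H929 they ran from -0.049 to 0.32 for IKBKE, -0.011 to 0.17 for IRF3, -0.17 to 0.035 for TANK and -0.10 to 0.16 for AZI2, and with shRNA2 from -0.040 to 0.13 for TBK1, -0.061 to 0.13 for IRF3 and -0.078 to 0.033 for MAVS. The H929 effect difference ran from -0.0016 to 0.36 for IKBKE, -0.14 to 0.050 for IRF3 and -0.12 to 0.15 for AZI2. Between the H929 scrambles, TBK1 ran from -0.087 to 0.15 and IKBKE from -0.038 to 0.33. The shRNA1 line difference ran from -0.32 to 0.12 for TBK1 and -0.00082 to 0.27 for AZI2. The shRNA2 line difference ran from -0.024 to 0.23 for MB21D1, -0.094 to 0.35 for TBK1 and -0.024 to 0.086 for MAVS. Why these values moved was not tested. TMEM173 in MM1.S rests on 2 to 25 reads a library.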
